A study of Caenorhabditis elegans with 9 samples.

Results

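The insulin-like peptide family of Caenorhabditis elegans was followed here as 26 genes: 23 peptide genes named ins, the peptide gene daf-28, the receptor gene daf-2 and the transcription factor gene daf-16. Members were taken from the platform annotation as the probe sets that name only 1 gene and name one of these symbols. They come from 17118 genes named in that way on the array. Of the 33 probe sets that qualified, 1 per gene was used, the one with the highest mean over the 9 arrays. The gene table used here lists 39 ins genes, and 16 of them have no probe set in this set and were not analysed here. In 23 members a single probe set qualified, while daf-2, daf-16 and ins-24 had several.

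Messenger RNA of whole animals, labelled as young adults, was measured on 9 one-colour Affymetrix arrays, 3 per group. Wild type was strain N2. Strain MT14769 carries n4357 in prg-1 and n4358 in prg-2, and strain SX9 carries n4503 in prg-1 and nDf57 in prg-2. The product of prg-1 binds piRNAs, small RNAs that silence transcripts in the germline, and prg-2 is a close relative of it. Each mutant group is a single strain, so effects of the prg alleles and of other differences in strain background cannot be told apart, and the design asks how far 2 independent double mutants differ from wild type. All values are RMA levels on the log2 scale, so a difference of 1 is a doubling. The labels do not say whether replicates were separate cultures, so p-values measure the spread between these samples only.

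Insulin-like peptides are small secreted hormones, made largely by neurons and the intestine, that mature in secretory vesicles and bind the single insulin receptor of the worm, DAF-2. Active DAF-2 signals through a phosphoinositide kinase to the AKT kinases, which keep the FOXO transcription factor DAF-16 out of the nucleus. When signalling is low, DAF-16 enters the nucleus, and larvae can form the dormant dauer stage while adults live longer and resist stress. Some peptides activate the receptor and others oppose it.

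Most members gave weak signals. Array medians ran from 4.76 to 4.83 log2 and the lowest value of the table was 2.35. A member was taken to lie near the floor when its mean was under 3.71 log2, which is 1 log2 above the 1st percentile of all probe set means. By that measure 5 of the 26 members (19.2%) lay near the floor, namely ins-7, ins-31, ins-2, ins-21 and ins-3, beside 25.1% of all probe sets. Another 12 members had means between that limit and the median of all probe sets, 4.82 log2, and 9 lay above the median. Probe sets differ in how well they bind, so these positions do not rank the genes by transcript amount, and whether a low value is signal or background is not given by the file.

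**Figure D1:**
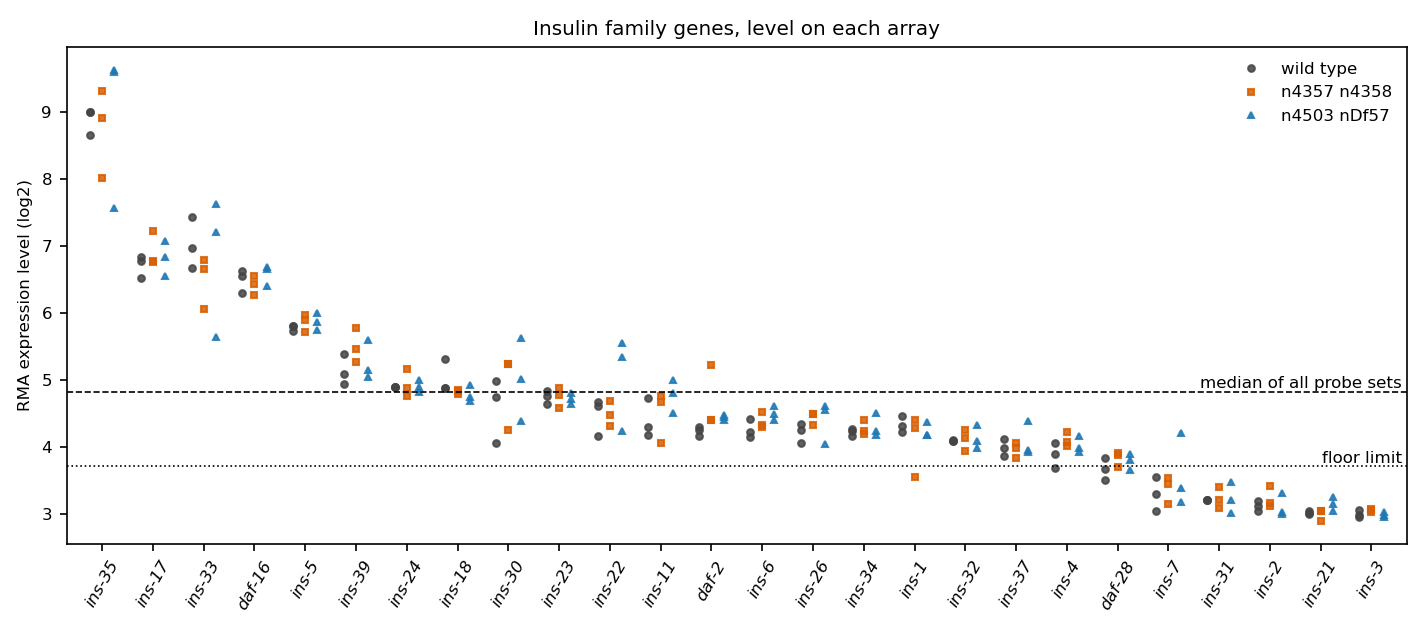
RMA expression level (log2, vertical axis) of the 26 insulin family genes on each of the 9 arrays, ordered by mean, with circles for wild type, squares for MT14769 (n4357 n4358) and triangles for SX9 (n4503 nDf57); the dotted line is the floor limit of 3.71 and the dashed line the median of all probe sets, 4.82. ins-35 spans 7.57 to 9.63 log2, and daf-2 is the member whose 6 mutant arrays all lie above its wild-type arrays.

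No member passed the test for a difference from wild type. With limma and Benjamini-Hochberg adjustment over all 22548 probe sets, 0 of 26 members passed an adjusted p of 0.05 in the average of the mutants set against wild type, in MT14769 alone, in SX9 alone, or between the mutants. Over all probe sets the share called was 0.0% in each of these comparisons. At an unadjusted p under 0.05 there were likewise 0 members in all 4, where the share of all probe sets was 3.61% for the mean of both, 3.99% for MT14769, 2.83% for SX9 and 2.47% between the mutants. The mutants share their wild-type arrays, so the comparisons are not independent. These counts do not show that levels were equal, and in whole animals fewer cells of a type and less RNA per cell cannot be told apart.

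In the mean of both mutants 21 members had a positive and 5 a negative difference, with a median of 0.06 log2. Over all probe sets 56.5% were positive and the median was 0.02. The member differences ran from -0.35 in ins-33 to 0.37 in ins-30, a level 1.29-fold that of wild type. Spread inside the groups was modest for most members, with a median residual SD of 0.16 log2 beside 0.20 over all probe sets. Of the 26 members 6 lay above the upper quartile of all probe sets. By definition 5637 of 22548 probe sets do, so this count was near the background. Those with the widest spread were ins-35 (0.79), ins-33 (0.68), ins-30 (0.56) and ins-22 (0.45).

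**Figure D2:**
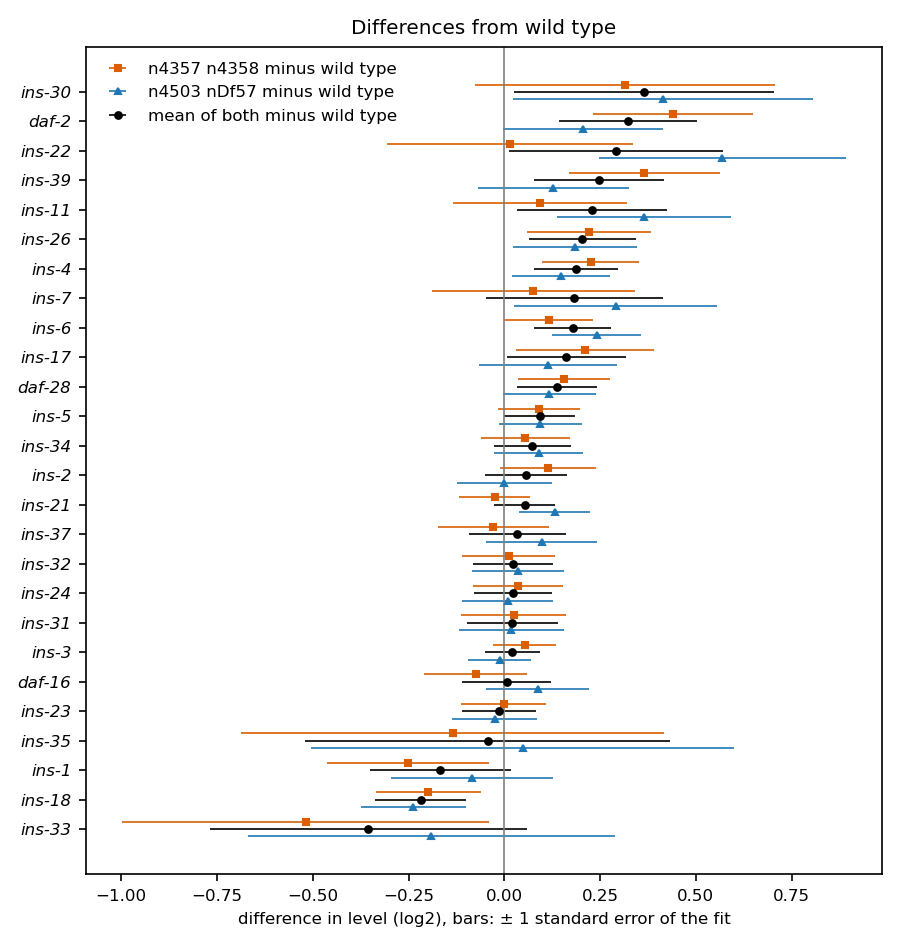
Difference in level from wild type (log2, horizontal axis) for the 26 members, with squares for MT14769 (n4357 n4358), triangles for SX9 (n4503 nDf57), circles for the mean of both, and bars of 1 standard error of the limma fit to each side. The means of both run from -0.35 in ins-33 to 0.37 in ins-30, and the widest bars belong to ins-35, ins-33 and ins-30.

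The receptor gene daf-2 was the member in which wild-type and mutant arrays did not overlap. It read 4.29, 4.25 and 4.16 log2 in wild-type replicates 1 to 3, then 4.40, 4.40 and 5.23 in MT14769, and at 4.47, 4.44 and 4.40 in SX9. All 6 mutant arrays were higher, 5 of them in a narrow band and MT14769 replicate 3 well above it. The difference for daf-2 was 0.32 (SE 0.18; limma unadjusted p = 0.109, adjusted p = 0.999), and 0.19 without that replicate. Separation upward occurred in 1 of 26 members beside 1.05% of all probe sets, and separation downward in 0 members beside 0.803%. By its suffix this daf-2 probe set may also pick up transcripts of genes other than daf-2. The other 3 daf-2 probe sets lay near the floor, did not separate the groups, and gave differences of 0.08, -0.01 and 0.11, so that the mean of all 4 gave a daf-2 difference of 0.12.

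daf-16, the output factor of the pathway, stood at 6.55, 6.29 and 6.62 log2 in wild type, at 6.43, 6.55 and 6.26 in MT14769 and at 6.40, 6.68 and 6.66 in SX9. The groups overlapped throughout, with a difference of 0.01 (SE 0.12; limma adjusted p = 0.999). The 3 other daf-16 probe sets gave -0.14, -0.10 and 0.15, so the sign depended on the probe set.

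Among peptides known to activate the receptor, daf-28, which keeps larvae out of dauer, stood at 3.83, 3.50 and 3.66 log2 in wild type. Its levels were 3.87, 3.69 and 3.90 in MT14769 and 3.81, 3.89 and 3.65 in SX9, overlapping wild type in both strains. Its difference was 0.14 (SE 0.10; unadjusted p = 0.226), and 0.056 or 0.22 without wild-type replicate 2 or 1. This probe set lay just above the floor limit, with a mean of 3.76.

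ins-6, which acts in dauer exit and in learning, stood at 4.22, 4.14 and 4.42 log2 in wild type. It was at 4.29, 4.32 and 4.52 in MT14769 and at 4.49, 4.61 and 4.40 in SX9. Of its 6 mutant arrays 3 were above the highest wild-type array. The ins-6 difference was 0.18 (SE 0.10; unadjusted p = 0.112) in the mean of both, 0.12 without wild-type replicate 2, and 0.24 in SX9 (unadjusted p = 0.0695), the smallest p of any member in that strain.

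ins-4, another activator that blocks dauer formation, stood at 3.89, 3.67 and 4.05 log2 in wild type. Its arrays read 4.07, 4.23 and 4.002 in MT14769 and 3.98, 4.16 and 3.92 in SX9, a difference of 0.19 (SE 0.11; unadjusted p = 0.128) with overlapping groups, and 0.087 without wild-type replicate 2. Its neighbours on chromosome II also had small differences. ins-5 stood at 5.80, 5.80 and 5.72 log2 in wild type, at 5.71, 5.97 and 5.90 in MT14769 and at 5.99, 5.86 and 5.74 in SX9. Of its mutant arrays 4 were above and 1 below all of wild type, a difference of 0.09 (SE 0.09), and 0.060 without SX9 replicate 1. ins-2 and ins-3 lay near the floor with differences of 0.06 and 0.02.

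ins-33, which has been linked to division of germline cells in larvae, spread widely. It stood at 6.66, 6.96 and 7.42 log2 in wild type, at 6.79, 6.65 and 6.05 in MT14769 and at 5.64, 7.21 and 7.63 in SX9. The lowest and the highest ins-33 array both belong to SX9. Its difference of -0.35 (SE 0.41; unadjusted p = 0.416) shrank to -0.15 without wild-type replicate 3 and to -0.06 without SX9 replicate 1, and reached -0.56 without replicate 3 of that strain.

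ins-35, reported to favour reproductive growth over dauer, had the brightest probe set of the family. It stood at 8.995, 8.66 and 8.995 log2 in wild type, at 9.31, 8.92 and 8.01 in MT14769 and at 7.57, 9.59 and 9.63 in SX9. Of the mutant arrays 3 were above and 2 below all of wild type. The mean difference of -0.04 (SE 0.48) had no stable sign, running from -0.22 to 0.30 when single arrays were left out.

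Among the remaining listed activators, ins-32 stood at 4.10, 4.09 and 4.09 log2 in wild type, at 4.12, 3.94 and 4.25 in MT14769 and at 4.32, 4.09 and 3.98 in SX9. Mutant arrays lay on both sides of wild type, with a difference of 0.02 (SE 0.10). ins-7, a gut and neuron peptide that DAF-16 represses, lay near the floor, with 1 array of SX9 at 4.21 against 3.04 to 3.55 in the other 2 arrays of that strain and in all other arrays. Over the 9 activators measured of 10 listed, 7 differences were positive and 2 negative, with a median of 0.09 beside 0.02 over all probe sets. The roles of ins-5, ins-32 and ins-9 in that list are less well established than the others, and ins-9 was not measured.

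ins-18, a peptide known to oppose DAF-2 signalling, had the smallest p of the family in the mean of both mutants. It stood at 4.88, 5.32 and 4.88 log2 in wild type, at 4.85, 4.79 and 4.84 in MT14769 and at 4.93, 4.75 and 4.68 in SX9. The 3 arrays of MT14769 were below wild type, while 1 of SX9 overlapped it. The ins-18 difference was -0.22 (SE 0.12; unadjusted p = 0.102), and -0.07 without wild-type replicate 2, the array that stands apart.

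ins-1, the peptide most like human insulin and also an antagonist, stood at 4.30, 4.46 and 4.21 log2 in wild type, at 4.40, 4.28 and 3.54 in MT14769 and at 4.17, 4.17 and 4.37 in SX9. A single array, MT14769 replicate 3, was far below the rest. The difference was -0.17 (SE 0.18; unadjusted p = 0.387), and -0.034 without that array or -0.10 without wild-type replicate 2.

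ins-17, an antagonist that promotes dauer formation, stood at 6.52, 6.77 and 6.84 log2 in wild type. It was at 6.77, 6.76 and 7.22 in MT14769 and at 7.08, 6.55 and 6.84 in SX9, a difference of 0.16 (SE 0.16; unadjusted p = 0.329). The groups overlapped, and the difference was 0.069 without wild-type replicate 1, 0.085 without MT14769 replicate 3 and 0.098 without SX9 replicate 1. Over 5 peptides listed as opposing the receptor, with ins-37 and ins-39 on weaker ground, 3 differences were positive and 2 negative, and the median was 0.03.

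ins-39 stood at 5.09, 5.38 and 4.93 log2 in wild type, at 5.26, 5.46 and 5.77 in MT14769 and at 5.60, 5.14 and 5.04 in SX9. Of its mutant arrays 3 were above all of wild type and none below, a difference of 0.25 (SE 0.17; unadjusted p = 0.184). It ranged from 0.15 without wild-type replicate 3 and 0.16 without SX9 replicate 1 to 0.37 without wild-type replicate 2. In MT14769 alone ins-39 lay 0.37 higher (unadjusted p = 0.0989), next after daf-2 at 0.44 (unadjusted p = 0.0655).

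ins-22 belongs to a run of neighbouring peptide genes on chromosome III. It stood at 4.15, 4.60 and 4.66 log2 in wild type, at 4.48, 4.67 and 4.31 in MT14769 and at 4.23, 5.34 and 5.55 in SX9. The 2 highest arrays were both of SX9, whose other array was close to the lowest of all. Its difference in that strain was 0.57 (SE 0.32; unadjusted p = 0.113) and that between the mutants 0.55 (unadjusted p = 0.121). The mean of both lay 0.29 from wild type, but 0.13 without wild-type replicate 1, 0.16 without SX9 replicate 3 and 0.49 without SX9 replicate 1.

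The genes beside ins-22 read differently. ins-23 stood at 4.63, 4.83 and 4.76 log2 in wild type, at 4.77, 4.57 and 4.88 in MT14769 and at 4.71, 4.80 and 4.63 in SX9, so that all groups overlapped, with a difference of -0.01 (SE 0.10). ins-21, near the floor, read 3.03, 2.99 and 3.01 log2 in N2, 3.03, 3.03 and 2.89 in MT14769 and at 3.24, 3.14 and 3.04 in SX9. Its SX9 arrays lay just above those of both other groups, with differences of 0.13 from wild type (unadjusted p = 0.193) and 0.16 between the mutants (unadjusted p = 0.127). Groups without overlap were found in 2 of 26 members for MT14769 against wild type (ins-18 and daf-2, beside 9.06% of all probe sets), in 2 for SX9 (daf-2 and ins-21, beside 6.58%) and in 1 between the mutants (ins-21, beside 5.49%).

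On chromosome I, ins-30 lies between ins-24 and ins-26. It stood at 4.98, 4.06 and 4.74 log2 in wild type, at 5.23, 5.23 and 4.25 in MT14769 and at 4.38, 5.62 and 5.01 in SX9. Each group held 1 low array. Its difference of 0.37 (SE 0.34; unadjusted p = 0.312) was 0.10 without wild-type replicate 2, 0.21 without SX9 replicate 2 and 0.56 without wild-type replicate 1.

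ins-24 stood at 4.89, 4.89 and 4.90 log2 in wild type, at 4.76, 5.16 and 4.87 in MT14769 and at 4.90, 4.997 and 4.81 in SX9. The mutant arrays spread around a tight wild-type group, with a difference of 0.02 (SE 0.10). ins-26 stood at 4.05, 4.24 and 4.34 log2 in wild type, at 4.49, 4.32 and 4.49 in MT14769 and at 4.04, 4.54 and 4.61 in SX9, a difference of 0.20 (SE 0.14; unadjusted p = 0.183), and 0.12 without wild-type replicate 1. In ins-26, 4 of 6 mutant arrays were above all of wild type and 1 was below.

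ins-11, a gut peptide that dampens learned avoidance of harmful bacteria, stood at 4.72, 4.18 and 4.29 log2 in wild type, at 4.76, 4.66 and 4.06 in MT14769 and at 4.50, 4.80 and 4.99 in SX9. The groups overlapped, and the difference was 0.23 (SE 0.20; unadjusted p = 0.276), with 0.12 or 0.39 without wild-type replicate 2 or 1. The ins-11 probe set, by its suffix, may also pick up related transcripts. ins-34 stood at 4.27, 4.23 and 4.15 log2 in wild type, at 4.18, 4.40 and 4.23 in MT14769 and at 4.51, 4.23 and 4.18 in SX9. ins-37 stood at 4.11, 3.86 and 3.98 log2 in wild type, at 3.98, 3.83 and 4.05 in MT14769 and at 4.38, 3.95 and 3.92 in SX9. In both genes replicate 1 of SX9 was the highest array and the rest overlapped, with differences of 0.07 (ins-34) and 0.03 (ins-37). ins-31, near the floor, read 3.21 on all wild-type arrays and had a difference of 0.02.

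Arrays inside each group differed in genes of the moult, the shedding of the cuticle that ends each larval stage. The mean of 24 moulting genes, taken relative to the 9 arrays, came to 0.19, -0.35 and 0.29 log2 for N2, 0.41, 0.03 and -0.51 in MT14769 and -0.53, 0.26 and 0.20 in SX9. So 1 array of each group lay low, and the other 6 lay above 0. A slope on this mean, which is the change in a gene's log2 level per 1 log2 of the moulting-gene mean inside groups, was fitted to every probe set with limma. The moulting genes did not all follow their own mean. Of the 24, 18 had a positive slope, and 15 passed an adjusted p of 0.05, 14 upward and 1 downward. These genes make up the mean, so their slopes are no independent check of it. With adjustment over all probe sets the slope passed in 3 of 26 members (11.5%), beside 10.9% of all probe sets. At an unadjusted p under 0.05 there were 9 members (34.6%), beside 33.7%. The family as a whole was therefore near the background, and the values that follow describe single genes.

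ins-35 rose with the moulting-gene mean, with a slope of 1.70 (SE 0.31; limma adjusted p = 0.0210). Its lowest array in each group was the array with the lowest moulting-gene mean, although in wild type that array (8.66) was only slightly below the others (both 8.995). ins-30 rose as well, with a slope of 1.21 (SE 0.22; adjusted p = 0.0195), and again the low array of each group, at 4.06, 4.25 and 4.38, was the one with the low mean. The neighbours of ins-30 had slopes of -0.02 (ins-24) and 0.25 (ins-26), neither past the threshold. A second ins-24 probe set, near the floor, had a slope of 0.45 (limma adjusted p = 0.0813). ins-39 fell as the moulting-gene mean rose, with a slope of -0.62 (SE 0.10; adjusted p = 0.0151), and its highest array in each group, at 5.38, 5.77 and 5.60, was the one with the low mean.

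Slopes just outside the threshold were those of ins-11 (0.61, adjusted p = 0.0590), ins-2 (-0.32, 0.0668), ins-33 (1.25, 0.0700) and daf-16 (0.33, 0.0908). Another daf-16 probe set of similar mean level had a slope of 0.60 in the same limma fit, past the threshold (adjusted p = 0.0347). The remaining daf-16 probe sets gave 0.31 and 0.27, neither past it, so the daf-16 call depended on the probe set. For ins-33 the mutant arrays with low moulting-gene means were the lowest of all (6.05 and 5.64), whereas the corresponding wild-type array, at 6.96, lay between the other 2. ins-17 had a slope of -0.42 (adjusted p = 0.111), daf-2 one of -0.43 (0.179) and daf-28 one of 0.05 (0.815). Over the 26 members 12 slopes were positive and 14 negative. The slopes rest on few arrays: without MT14769 replicate 3, or without SX9 replicate 1, 0 members passed and 157 or 55 of all 22548 probe sets did. The ins-35 slope also missed the threshold without SX9 replicate 2 (adjusted p = 0.0596) or replicate 3 (adjusted p = 0.0528). With both arrays of low mean in the mutants left out 0 passed in the whole table, while the slope of ins-30 was 1.04, that of ins-39 -0.61, and that of ins-35 0.67.

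**Figure D3:**
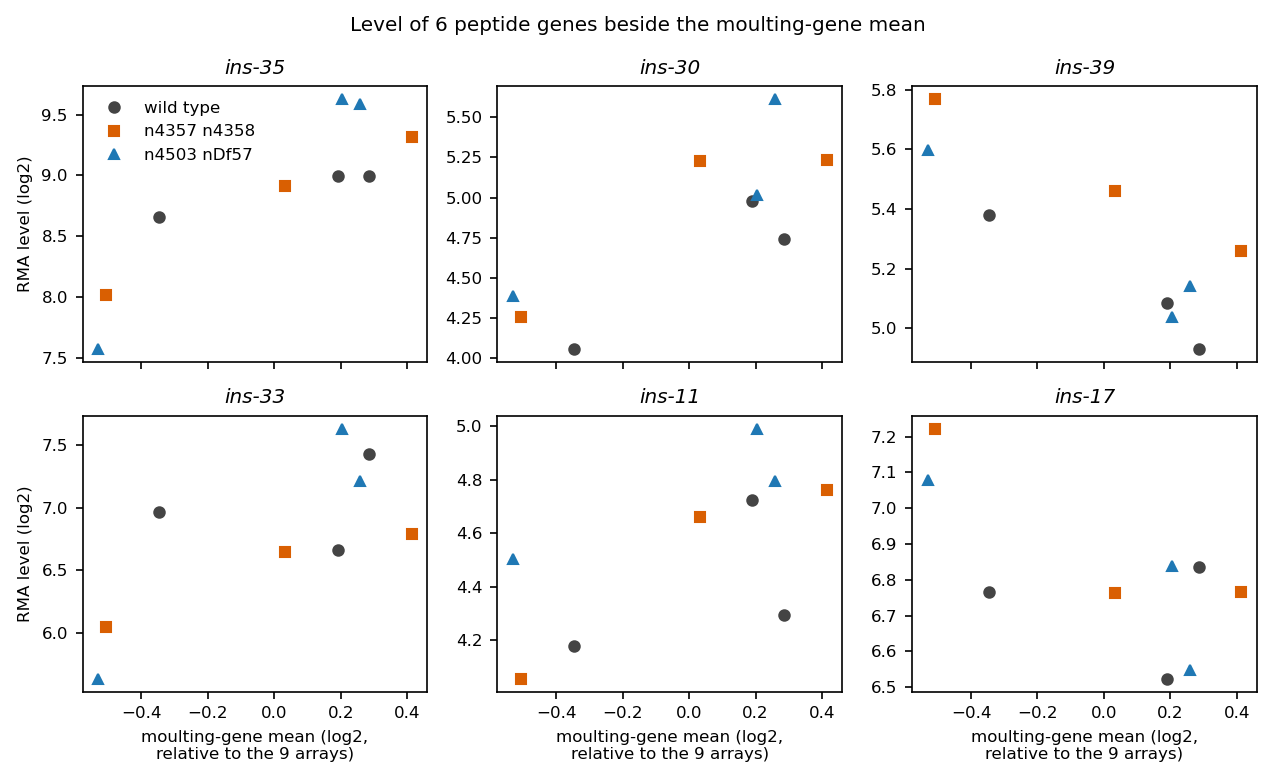
RMA level (log2, vertical axes) of ins-35, ins-30, ins-39, ins-33, ins-11 and ins-17 against the mean of 24 moulting genes relative to the 9 arrays (log2, horizontal axis), 1 point per array, with circles for wild type, squares for MT14769 (n4357 n4358) and triangles for SX9 (n4503 nDf57). The 3 arrays at the left, from -0.53 to -0.35, hold the lowest ins-30 and the highest ins-39 value of each group.

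With the moulting-gene mean as a covariate in the comparison with wild type, 3 members reached an unadjusted p under 0.05, beside 6.2% of all probe sets. In this limma fit ins-39 had a difference of 0.21 (SE 0.07; unadjusted p = 0.0214, adjusted p = 0.770). It came mainly from MT14769, at 0.33 (limma unadjusted p = 0.00458, adjusted p = 0.656), with 0.09 in SX9 (unadjusted p = 0.325). The ins-30 difference was 0.44 (SE 0.16; limma unadjusted p = 0.0230, adjusted p = 0.770), with 0.39 in MT14769 and 0.49 in SX9. For ins-18 the difference was -0.23 (SE 0.10; limma unadjusted p = 0.0468, adjusted p = 0.806), with -0.21 in MT14769 and -0.25 in SX9. daf-2 stood at 0.30 (SE 0.15; unadjusted p = 0.0816) in this fit.

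Genes that act with the peptides were examined as 53 measured genes of 55 listed, in 5 groups. With limma 0 passed the adjusted threshold in the mean of both mutants, and 3 (5.66%) had an unadjusted p under 0.05, beside 3.61% of all probe sets. Of all 53, 24 differences were positive and 29 negative, with a median of -0.02, where 56.5% of all probe sets were positive.

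The machinery of peptide maturation and release had 2 positive and 9 negative differences among 11 genes, with a median of -0.07. The one farthest from wild type was hid-1, a protein of dense-core vesicles, at 6.72, 6.92 and 6.75 log2 in wild type, 7.31, 7.42 and 6.60 in MT14769 and 7.02, 7.23 and 7.44 in SX9. All hid-1 arrays of the mutants but MT14769 replicate 3 were above wild type, a difference of 0.38 (SE 0.18; unadjusted p = 0.0751), and 0.23 with the mean of its probe sets. The proprotein convertase gene egl-3, whose product cuts neuropeptide precursors, followed the moulting-gene mean. Its slope was 1.16 (SE 0.12; limma adjusted p = 0.00489). Slopes past the threshold were found in 3 of these 11 genes (27.3%), egl-3, bli-4 and unc-64, all positive, beside 10.9% of all probe sets. The share was not particular to peptide release. It was 4 of 14 (28.6%), 2 up and 2 down, among genes that hold, modify or work beside DAF-16 or HSF-1. In the other lists it was 0 of 8, 1 of 7 and 2 of 13, and over all 53 genes 10 (18.9%). Like the slopes of the members, these come from a fit in which few calls were left without MT14769 replicate 3 or without SX9 replicate 1.

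In the cascade from the receptor to the AKT kinases 5 of 8 differences were positive, with a median of 0.06. age-1, the catalytic subunit of the phosphoinositide kinase, stood at 4.49, 4.15 and 4.22 log2 in wild type, 4.59, 4.49 and 4.53 in MT14769 and 4.46, 4.38 and 4.28 in SX9. The mutant age-1 arrays overlapped the highest wild-type array, with a difference of 0.17 (SE 0.10; unadjusted p = 0.117). It was 0.059 with the mean of its probe sets, and 0.10 or 0.27 without wild-type replicate 2 or 1. akt-1, one of the AKT kinases, ran from 7.34 to 7.99 log2 in wild type with a difference of 0.06 (SE 0.21).

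Among 7 regulators of the cascade 4 differences were positive and 3 negative. eak-7, which acts beside akt-1 to restrain DAF-16, stood at 6.01, 5.63 and 5.54 log2 in wild type, 6.41, 6.13 and 6.01 in MT14769 and 6.06, 6.03 and 5.96 in SX9. Its mutant arrays overlapped wild-type replicate 1 only, with a difference of 0.37 (SE 0.13; unadjusted p = 0.0215, limma adjusted p = 0.999).

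Among 14 genes that hold, modify or work beside DAF-16 or its partner HSF-1, 7 differences were positive and 7 negative. The 14-3-3 protein gene ftt-2, whose product binds DAF-16, had a difference of 0.16 (SE 0.08; unadjusted p = 0.101). Of 13 other genes linked to the pathway, rict-1, a subunit of the TORC2 kinase, was at 5.41, 4.98 and 5.37 log2 in wild type and between 5.49 and 5.83 on all mutant arrays, a difference of 0.34 (SE 0.12; unadjusted p = 0.0187, limma adjusted p = 0.999). The rict-1 difference was 0.091 from probe sets not of the shared kind, 0.21 with the mean of its probe sets and 0.20 without wild-type replicate 2. daf-7, the TGF-beta ligand that controls dauer entry beside the insulin pathway, stood at 5.34, 4.78 and 4.98 log2 in wild type and between 5.18 and 5.68 in the mutants, overlapping it (difference 0.35, SE 0.15; unadjusted p = 0.0433), and its difference was 0.23 without wild-type replicate 2.

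**Figure D4:**
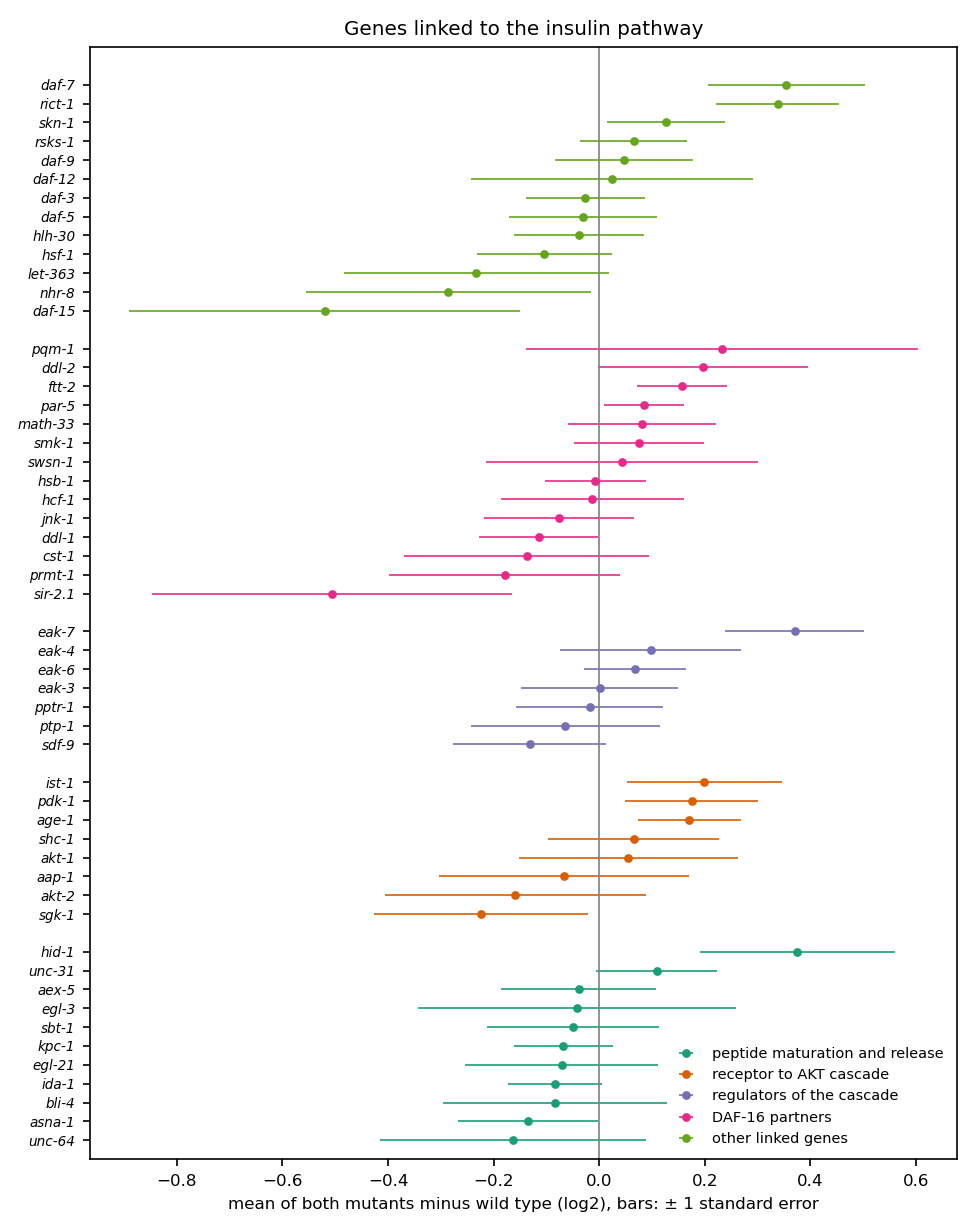
Difference of the mean of both mutants from wild type (log2, horizontal axis) for 53 genes linked to the insulin pathway, grouped by role and coloured by group, with bars of 1 standard error of the limma fit to each side. The 3 genes at an unadjusted p under 0.05 are eak-7 (0.37), daf-7 (0.35) and rict-1 (0.34).

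Listed targets of DAF-16, whose direction was already known from earlier results and is no independent evidence, had 9 positive and 2 negative differences among 11 genes measured of 12, with a median of 0.57 beside 0.02 over all probe sets, of which 56.5% were positive. The list does not separate targets that DAF-16 raises from those it lowers, so these signs do not give a direction of DAF-16 activity. Of these targets 5 had an unadjusted p under 0.05, beside 3.61% of all probe sets, while 0 passed adjustment. dod-6 (1.51), dod-3 (1.29) and lys-7 (1.10) led, each with 4 of 6 mutant arrays above all of wild type. Their slopes on the moulting-gene mean were 1.68, -1.51 and 1.20. All 6 mutant arrays lay above wild type in mtl-1 (0.60) and gpd-2 (0.31), 2 of 11 targets beside 1.05% of all probe sets. The differences of sod-3 and hsp-12.6 were 0.01 and -0.01. Wild-type means of mtl-1 and hsp-12.6, 3.03 and 3.07 log2, lay below the floor limit of 3.71.

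Markers of tissues that make or receive the peptides were compared between the groups. The mean deviation of 14 neuron markers from the 9 arrays lay between -0.10 and 0.07 log2 for N2, -0.08 to 0.11 in MT14769 and -0.18 to 0.13 in SX9, with 1 of the markers near the floor. For 11 intestine markers these ranges were -0.22 to 0.16, -0.13 to 0.14 and -0.04 to 0.05, and for 14 germline markers -0.41 to 0.25, -0.24 to 0.46 and -0.30 to 0.15. The 20 major sperm protein genes varied most, from 0.33 to 1.44 in wild type, -2.20 to 1.05 in MT14769 and -1.46 to 0.38 in SX9. In the mean of both mutants all 20 lay below wild type, with a median of -1.34. Of the 20, 0 had a limma unadjusted p under 0.05, beside 3.61% of all probe sets. Of these 4 lists 0 genes passed adjustment in the mean of both mutants. Their part in the values of single members was not tested.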

How the data were processed

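Each array has 1 deposited log2 level per probe set. Per the submitters' processing notes the authors used RMA and limma, and biotin-labelled RNA was hybridised, per the labels. Their versions: not given in the sources used here. This method evens out array distributions and compresses low levels. Of 22625 probe sets, 77 controls were left out. Of the 22548 tested, 20766 name 1 gene in the platform annotation, 887 several and 895 none, and 20701 of the first kind matched the gene table (assembly WBcel235).

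Groups came from the sample titles. One limma fit (limma 3.58.1, statmod 1.5.0, R 4.3.3) over all 9 arrays had a mean per group, with 6 residual and 2.38 prior degrees of freedom. The slope fit added the moulting-gene mean. Benjamini-Hochberg adjustment covered the whole table of tested probe sets. Both fits were run on simulated data with independent noise, to check that the mean estimate returned the changes put in. That run does not measure the power for differences as small as those of the members. No 2 arrays were copies: at most 4.04% of values were identical. Tables and figures used Python 3.11.15, numpy 2.4.6, pandas 2.3.3 and matplotlib 3.10.9.

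The members, gene lists, covariate and tests were chosen with earlier results of these data known. Named in full were daf-2, daf-16, daf-28, each ins gene above the floor limit, the 3 members with the smallest unadjusted p per comparison and in the slope test and any whose wild-type and mutant arrays were separated; of pathway genes, age-1, akt-1, those at an unadjusted p under 0.05 and 1 or 2 per list. Alternatives were a replicate block, array weights, robust variance trend, a filter that drops means under the 30th percentile, cyclic loess, no shared probe sets, averaging a gene's probe sets, only the arrays compared, the covariate, a threshold of 0.1, the lower quartile as floor, and leaving out arrays. Probe sequences and positions were not used here. A gene of the pathway lists is not reported here.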

Additional observations from a re-analysis of the deposited data

How the results depend on the processing

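The count of 0 members past the threshold held in all 4 group comparisons under every alternative run (18 or 19 each), as did the 0 pathway genes in the mean of both mutants, and 21 of 29 named differences kept their sign. Differences that changed sign were those of ins-35 with array weights (0.32) and with the moulting covariate (0.0654), ins-17, ins-32 and ins-37 with array weights (-0.0138, -0.0579 and -0.0888), daf-16 without shared probe sets (-0.14) and with the mean of its probe sets (-0.0202), ins-24 and ins-32 under cyclic loess (-0.0028 and -0.0032), and akt-1 with the mean of its probe sets (-0.0208). With single arrays left out, ranges that crossed 0 were -0.22 to 0.30 (ins-35), -0.0939 to 0.0738 (daf-16), -0.0350 to 0.0657 (ins-24), -0.0680 to 0.0312 (ins-23), -0.0239 to 0.0648 (ins-32), -0.0409 to 0.10 (ins-37) and -0.13 to 0.19 (akt-1). The 3 slopes past the threshold ranged from 0 to 4 with single arrays left out, became 0 without the 2 arrays farthest from the median, and 7 at an adjusted p of 0.1. The replicate number as a block left 0 calls in the group comparisons and 4 slopes, ins-33 joining (adjusted p = 0.0287). Deviations of same-numbered arrays from their group means correlated between -0.60 and 0.40. The titles do not say whether replicate numbers pair the samples, and these correlations do not settle it. The number of arrays limits the precision, and low signals are compressed.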
